A study of Homo sapiens with 11 samples.

Results

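Antioxidant enzymes clear the reactive oxygen that respiration and inflammation leave in a cell. Superoxide dismutases turn superoxide into hydrogen peroxide, and catalase, glutathione peroxidases and peroxiredoxins then remove the peroxide. Thioredoxin and thioredoxin reductase keep the peroxiredoxins reduced, and the transcription factor NRF2 drives many of the genes, while SOD2 is also a well known NF-kB target. The genes described here are SOD2 and 9 further antioxidant enzyme genes (SOD1, CAT, GPX1, NQO1, HMOX1, TXNRD1, SRXN1, PRDX1 and TXN), taken by symbol as 10 of 28152 rows of the deposited tables. All 10 were among the 16653 genes that passed the filter on low counts, each with at least 670 counts in every library. The genes were selected on their counts and RPM in evexomostat against vehicle tumours, with SOD2 leading because of its difference between the groups, so the group differences of the members are given as descriptions and support nothing by themselves.

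The RNA came from 11 tumours, 1 library each, grown from BT-474 cells, a breast cancer line whose genotype the labels give as HR+/Her2+, in the fourth mammary fat pad of female Athymic Nude mice. All the mice, controls included, carried a slow-release estrogen pellet (0.72 mg of β-estradiol, 90-day), and tumours could enter the study above 95 mm3. In the vehicle group (6 tumours) mice received 5% mannitol in water under the skin every 4 days, and in the other group (5 tumours) Evexomostat (SDX-7320), an inhibitor of MetAP2, the aminopeptidase that trims the initiator methionine from nascent proteins, at 12 mpk on the same schedule. The time label is Day 33 for all libraries, the animals' age is not given in the sources used here, and each tumour holds mouse stroma and vessels beside the human cells. The question posed by the design is how the drug changes gene expression in these tumours.

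Libraries held between 22808033 and 39249329 counts. Vehicle replicate 001 was unlike the rest: its top 100 genes took 23.9% of all counts, where those of the other 10 libraries took 16.2% to 17.9%. Results that rest on it are given with and without it. The label was checked against 10 markers that define the line, of which the hormone receptor genes PGR and ESR1 had at most 5 and 17 counts in any library. Levels are in CPM, a gene's count relative to its library's total, after TMM scaling, which corrects that total for composition. Vehicle tumours averaged 52.5 ± 14.1 CPM of ERBB2 (SD, n = 6) and treated ones 54.3 ± 4.22 (SD, n = 5), and CDH1, KRT19, FOXA1 and EPCAM each had no more than 149 counts in any library (KRT8 had at least 6216), so most of the line's defining markers were absent or near 0 and the tumours are called by their label only. Summed, the 10 markers reached 344 to 791 CPM under vehicle and 476 to 601 under evexomostat. A list of 6 mesenchymal markers reached 1994 to 4012 and 1929 to 2712 CPM. By the quasi-likelihood test of edgeR, 101 genes of the 16653 tested (0.606%) had an adjusted p under 0.05, 29 higher and 72 lower under evexomostat. With upper quartile scaling the split was 28 higher and 42 lower, and on log2(RPM + 1) values, which moved the median of all genes by 0.11 on the log2 scale, it was 43 and 31.

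Promoter sequences from RefSeq (GRCh38.p14) were searched in the bases just before each start site only. The search was for sites of NRF2 and NF-kB and, apart from these, for GC boxes. Windows of 250 bases before a start site were found for 7 of the 10 genes, 11 windows in all, and SOD1, HMOX1 and PRDX1 had no entry. SOD2 has 4 windows, and the one at which 6 of 7 basic GENCODE transcripts start within 100 bases holds 6 GC boxes (GGGCGG, either strand, overlaps counted). The stretch below runs from 170 to 91 bases before that start, at chr6:159693332-159693411 on the minus strand, outside any SOD2 exon of the basic annotation, and its capitals mark 3 of those boxes, the first pair of which overlap.
SOD2: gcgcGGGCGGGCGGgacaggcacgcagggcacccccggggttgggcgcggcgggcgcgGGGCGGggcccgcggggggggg
A GC box lies in 42.6% of all 35116 windows of this length. The core of the antioxidant response element, the NRF2 site (TGACNNNGC, either strand), lies in 10.9% of all windows and was found among the members only in both windows of TXNRD1, once in each, shown in capitals with 9 bases on either side (in the second window the match is on the opposite strand).
TXNRD1, chr12:104215671-104215697, plus strand: cacgggctaTGACTTCGCtgttgtcac
TXNRD1, chr12:104286921-104286947, plus strand: tggatttctGCTTTGTCAttctgactc
An NF-kB motif, present in 5.21% of all windows, was found in none of the 11 windows. These matches describe the letters of the windows only, and sites farther from the start or inside a gene were not searched.

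SOD2 encodes the manganese superoxide dismutase of the mitochondrial matrix. Its vehicle levels ran from 1774 CPM (replicate 006) through a median of 2555 to 2701 (replicate 003). The evexomostat tumours were at 849 (replicate 002), 1228 (003), 1024 (004), 1125 (005) and 1021 CPM (007). All 5 treated tumours lay below the lowest vehicle tumour, and the gap between the groups, from 1228 to 1774 CPM, was wider than the whole range of the treated group. The means were 2386 ± 364 CPM (SD, n = 6) and 1049 ± 141 (SD, n = 5), a fitted 0.440 of the vehicle level, or a fitted log2 difference of -1.19 (SE 0.16). Its edgeR adjusted p was 0.0138, given as a description since the gene was picked on this contrast. In bulk tumours fewer cells of a type and less RNA per cell cannot be told apart.

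SOD2 was the 5th of all tested genes by p-value but only the 40th of the 72 lower genes by size of change, which ran from -0.51 to -4.265 on the log2 scale. Its fold change stayed between -1.08 and -1.26 in all 20 alternative fits. Leaving out 1 evexomostat library raised its edgeR adjusted p to 0.0525 (without replicate 002), 0.0558 (without 005) or 0.0609 (without 007), and these 3 fits called 2, 1 and 3 genes in all. Without vehicle replicate 001 it was at -1.16 (SE 0.14, edgeR adjusted p 0.0054). The authors' deposited table gives SOD2 a log2 fold change of -1.08, from a mean of 2307 to 1092 RPM, which is relative to the plain library total.

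**Figure D1:**
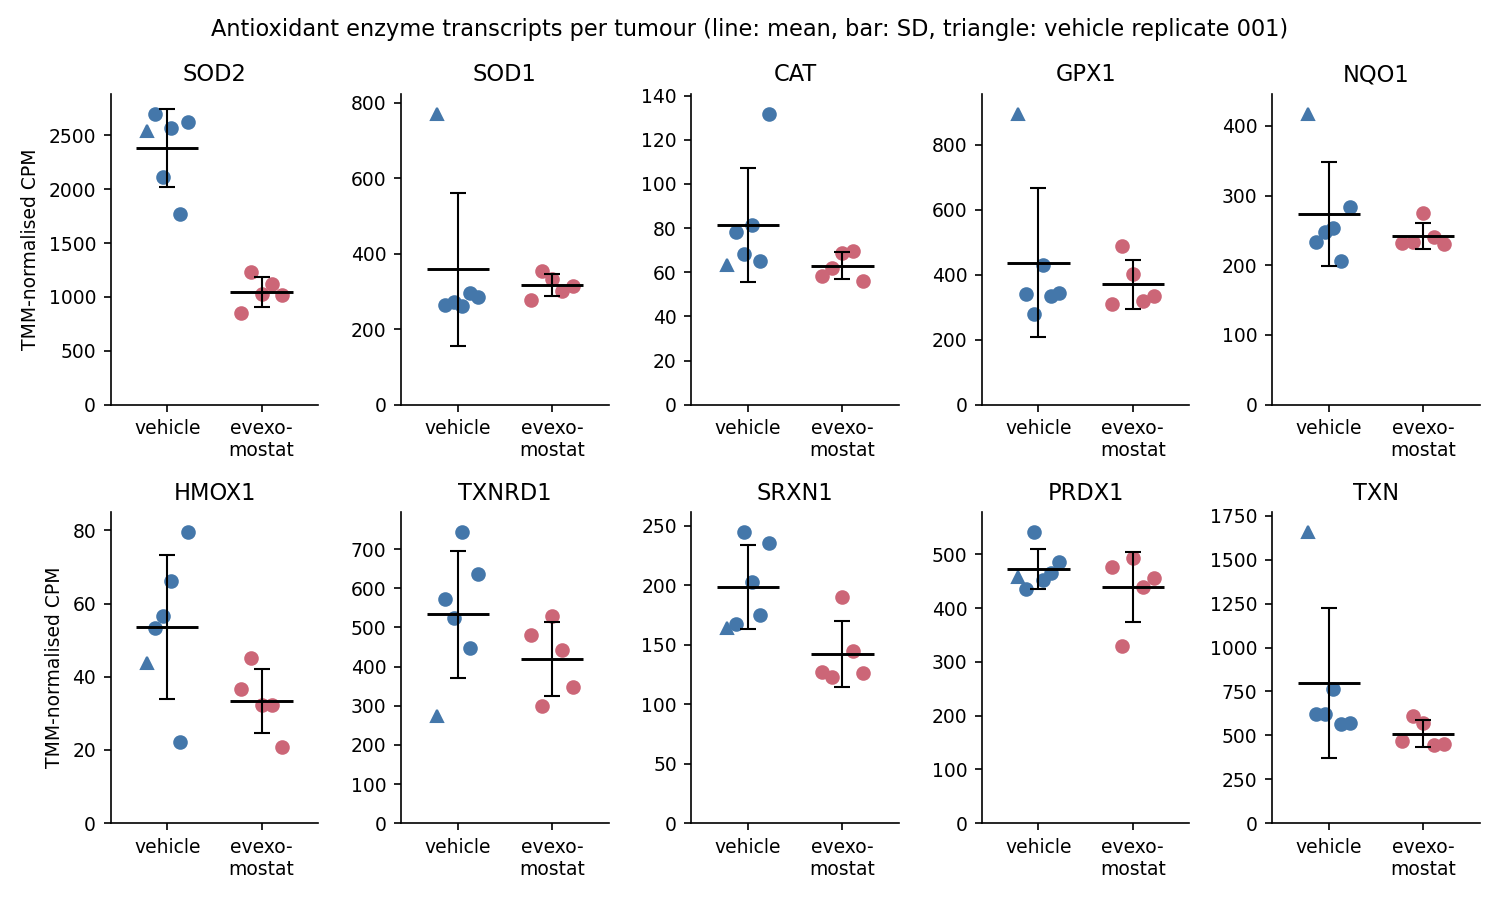
Level of each of the 10 antioxidant enzyme transcripts in TMM-normalised CPM (vertical axes, each from 0) for the 6 vehicle tumours (blue) and 5 evexomostat tumours (red), with the group mean (line) and SD (bar) and vehicle replicate 001 as a triangle. SOD2 is the panel in which the groups do not overlap (1774 CPM or more against 1228 or less), and the triangle lies far above the other vehicle tumours for SOD1, GPX1, NQO1 and TXN.

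SOD2 took 0.231% ± 0.031 (SD, n = 6) of all counts under vehicle and 0.109% ± 0.018 (SD, n = 5) under evexomostat. Of the counts of the 10 members together it made up 34.9% to 49.4% in vehicle tumours and 25.6% to 32.5% in treated ones. How SOD2 ranks among the members per length turns on its annotation, because 1 transcript model carries a very long exon that takes the exonic length of the gene to 17721 bases, while its median transcript has 991. Over the exonic length SOD2 was at 135 ± 20.5 CPM per kb (SD, n = 6) under vehicle, the 5th of the 10, and over the median transcript at 2408 ± 367, the highest. The neighbouring transcript SOD2-OT1 had 1 to 12 counts per library and was not tested.

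SOD1 encodes the copper and zinc dismutase of the cytosol. Vehicle tumours had 261 CPM at the lowest, 280 at the median and 771 at the highest, which was replicate 001, with the next at 297. Evexomostat tumours had 279 (002), 354 (003), 334 (004), 300.2 (005) and 315 CPM (007). The groups overlapped, and 1 of 5 treated tumours was below the vehicle median. Evexomostat replicates 003, 004, 005 and 007 lay above every vehicle tumour except replicate 001. The fitted log2 fold change was -0.18 (SE 0.27, edgeR adjusted p 0.845) with all libraries and 0.20 (SE 0.09, edgeR adjusted p 0.191) without vehicle replicate 001, so its direction turned with that library, and it also turned on RPM values (0.04).

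Set against SOD1 within each library, where scaling cancels, the ratio of SOD2 to SOD1 in CPM was 5.98 to 10.2 in 5 vehicle tumours, 3.30 in vehicle replicate 001 and 3.05 to 3.75 in the evexomostat tumours. The ratio in vehicle replicate 001 lay inside the treated range, with SOD2 there within the range of the other vehicle tumours and SOD1 far above it. Its mean was 7.71 ± 2.66 (SD, n = 6) under vehicle, 8.59 ± 1.74 (SD, n = 5) without replicate 001 and 3.32 ± 0.295 (SD, n = 5) under evexomostat. SOD3, the secreted dismutase, and CCS, the chaperone that loads copper onto SOD1, completed the list of superoxide dismutases, and of its 4 genes SOD2 was the 1 called. CCS had the lowest p of those fitted above 0, with a fitted log2 difference of 0.20 (SE 0.20, edgeR adjusted p 0.734).

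CAT encodes catalase, the peroxisomal enzyme that splits hydrogen peroxide. Its vehicle levels had a lowest value of 63.4, a median of 73.3 and a highest of 132 CPM, and treated tumours had 58.5 (002), 61.8 (003), 68.5 (004), 69.8 (005) and 56.1 CPM (007). Vehicle replicate 007 set the top of the range, the other 5 vehicle tumours reached 81.4, and 3 of 5 treated tumours were below the lowest vehicle tumour. Its fitted log2 fold change was -0.37 (SE 0.18, edgeR adjusted p 0.41) and, without vehicle replicate 007, -0.18 (SE 0.12, edgeR adjusted p 0.622).

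GPX1 encodes the main cytosolic glutathione peroxidase, a selenoprotein. Vehicle tumours ran from 279 through a median of 342 to 895 CPM (replicate 001), and treated tumours were at 310 (002), 489 (003), 401 (004), 318 (005) and 334 CPM (007). The treated values lay within the vehicle range, but without vehicle replicate 001 that range ended at 431 CPM, below evexomostat replicate 003. The fitted log2 difference of -0.24 (SE 0.28, edgeR adjusted p 0.783) became 0.105 (SE 0.15, edgeR adjusted p 0.706) without vehicle replicate 001.

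PRDX1, a peroxiredoxin that reduces peroxide in the cytosol, varied least of the members among vehicle tumours when all 6 are taken, with a coefficient of variation of 7.89%. It was at 435, 461 and 541 CPM (lowest, median and highest) under vehicle and at 476 (002), 329 (003), 493.4 (004), 440 (005) and 457 CPM (007) under evexomostat. Evexomostat replicate 003 was the lowest of the 11, and 4 of the 5 treated tumours lay within the vehicle range. The log2 fold change was -0.11 (SE 0.13, edgeR adjusted p 0.801), and it was below 0 in all 20 alternative fits, nearest to 0 without evexomostat replicate 003 (-0.02, SE 0.12, edgeR adjusted p 0.974).

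TXN encodes thioredoxin, which passes electrons to peroxiredoxins. The vehicle levels were 563, 621 and 1656 CPM at the lowest, median and highest, the last being replicate 001. The treated levels were 470 (002), 613 (003), 570 (004), 445 (005) and 453 CPM (007). All 5 treated tumours were below the vehicle median and 3 below the vehicle minimum. The log2 fold change was -0.65 (SE 0.28, edgeR adjusted p 0.323), and without vehicle replicate 001 it was -0.29 (SE 0.125, edgeR adjusted p 0.174).

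TXNRD1 encodes the selenoprotein that reduces thioredoxin with NADPH, and it is the gene whose 2 windows held the NRF2 core shown above. Its vehicle levels were 274 (replicate 001), 548 and 743 CPM at the lowest, median and highest. Treated tumours had 481 (002), 299 (003), 530 (004), 441 (005) and 347 CPM (007). The groups overlapped across the treated range, mainly through vehicle replicate 001, since the next lowest vehicle tumour had 448. The log2 fold change was -0.35 (SE 0.235, edgeR adjusted p 0.585) and, without that library, -0.475 (SE 0.175, edgeR adjusted p 0.123).

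SRXN1 encodes sulfiredoxin, which repairs over-oxidised peroxiredoxins. Vehicle tumours had 164, 189 and 245 CPM at the lowest, median and highest, and treated tumours 127 (002), 123 (003), 190 (004), 145 (005) and 127 CPM (007). Only evexomostat replicate 004 reached into the vehicle range, and the other 4 lay below it. After SOD2 this was the member with the smallest p-value, at a fitted log2 difference of -0.48 (SE 0.16, edgeR adjusted p 0.211). Without vehicle replicate 001 it was -0.52 (SE 0.15, edgeR adjusted p 0.0599).

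HMOX1 encodes heme oxygenase 1, which breaks down heme and releases iron. It had the lowest level per length of the 10, and its vehicle tumours spread from 22.1 (replicate 006) through a median of 54.9 to 79.5 CPM (replicate 007). The treated tumours had 36.6 (002), 45.0 (003), 32.3 (004), 32.2 (005) and 20.8 CPM (007). All 5 were below the vehicle median, but vehicle replicate 006 was lower than 4 of them. The log2 fold change was -0.68 (SE 0.28, edgeR adjusted p 0.3). Among the 8 libraries whose replicate numbers occur in both groups, which leaves out vehicle replicates 001 and 006 and evexomostat replicate 002, it was -0.98 with an edgeR adjusted p of 0.0379, where 4.42% of all genes were called. With the replicate number as a block in the same 8 libraries it was -1.01 with an edgeR adjusted p of 0.114, past the threshold no longer, where 0.645% were called.

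NQO1 encodes a quinone reductase and is among the most used readouts of NRF2. The vehicle levels were 206, 251 and 417 CPM at the lowest, median and highest, the last in replicate 001 with the next at 283. Treated tumours had 232 (002), 233 (003), 275 (004), 241 (005) and 231 CPM (007), all within the vehicle range. For NQO1 the log2 fold change was -0.18 (SE 0.17, edgeR adjusted p 0.728) and, without vehicle replicate 001, -0.01 (SE 0.10, edgeR adjusted p 0.962).

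In the whole-table fit, then, 1 of the 10 members was called, beside 0.606% of all tested genes, and nothing is read from that count because the set was built around it. Groups did not overlap for that same member alone, beside 2.97% of all tested genes in either direction. Unadjusted p-values under 0.05 came from 4 members, SOD2, SRXN1, HMOX1 and TXN, beside 13.4% of all tested genes in either direction and 8.55% in the lower direction. All 10 fitted changes were below 0, with a median of -0.36 beside -0.04 over all genes. Without vehicle replicate 001 SOD1 and GPX1 were above 0, and SOD2 remained the only member called, beside 5.22% of all genes.

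**Figure D2:**
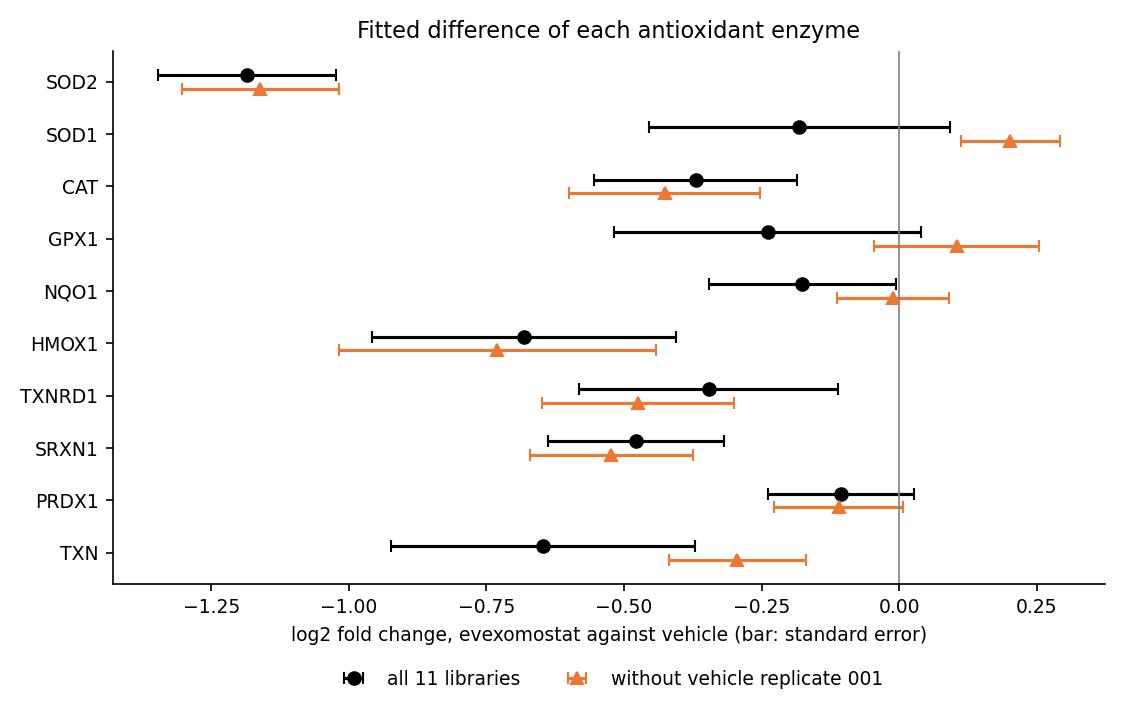
Fitted log2 fold change of each member, evexomostat against vehicle (horizontal axis, with bars of 1 standard error), with all 11 libraries (circles) and without vehicle replicate 001 (triangles). SOD2 stays near -1.2 in both, while SOD1 and GPX1 cross 0 and TXN moves from -0.65 to -0.29.

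The vehicle tumours alone also separated the members. Vehicle replicate 001 exceeded the mean of the other 5 vehicle tumours by 2.79 times for SOD1, 2.64 for TXN, 2.59 for GPX1 and 1.70 for NQO1. It was at 0.469 of that mean for TXNRD1, 0.747 for CAT and 0.798 for SRXN1, below every other vehicle tumour in each. SOD2 (1.08), PRDX1 (0.961) and HMOX1 (0.786) were within the range of the others. Exonic lengths were 869 bases for TXN, 966 for SOD1 and 1430 for GPX1 against 5046 for TXNRD1, but PRDX1, at 1252 bases, NQO1, at 3124, and SOD2, at 17721, did not follow that order. The median transcript has 1014 bases for NQO1 and 991 for SOD2, so which genes depart from the order depends on the length measure. Across 15746 tested genes, which are not independent replicates, the deviation of this library from the mean of all libraries changed by -0.145 on the log2 scale per doubling of length, against -0.06 to 0.06 in the others. The part of length in the members' values was not tested.

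**Figure D3:**
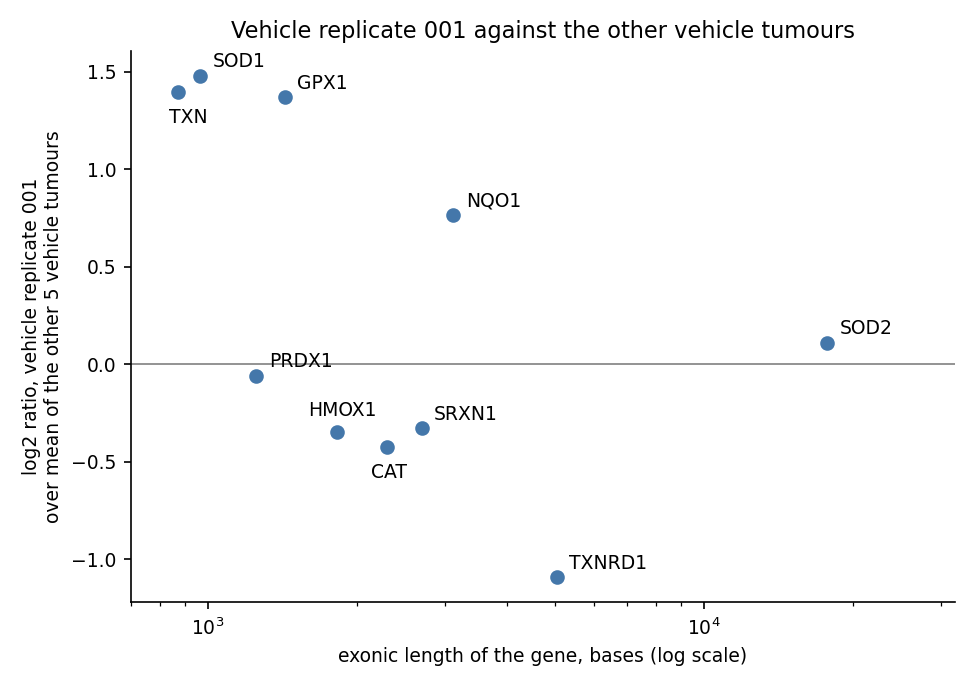
Log2 ratio of vehicle replicate 001 to the mean of the other 5 vehicle tumours (vertical axis) against exonic length in bases (horizontal axis, log scale) for the 10 members. TXN, SOD1 and GPX1 are near 1.4 at short lengths and TXNRD1 is at -1.09, while PRDX1 and SOD2 lie near 0.

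Without replicate 001 the vehicle coefficients of variation ran from 5.49% for SOD1 to 38.3% for HMOX1, with 16.9% for SOD2. HMOX1 and CAT were the most variable members among these tumours, and both peaked in vehicle replicate 007. After removal of the group means, the 45 pairs of members were compared over the 11 libraries, with p-values from 100000 permutations within groups. No pair had an adjusted p under 0.05. The closest was GPX1 with TXN (Pearson's r = 0.96, permutation p = 0.0021, adjusted p = 0.0945, Spearman's rho = 0.83, permutation p = 0.00691, adjusted p = 0.241). Its r was 0.77 without the 2 libraries farthest from the median of GPX1 and 0.83 without vehicle replicate 001. SOD2 had its highest value with HMOX1 (r = 0.62, permutation p = 0.0631, adjusted p = 0.323, rho = 0.57, permutation p = 0.0872, adjusted p = 0.356), and r was 0.44 without the 2 farthest libraries.

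Per exonic length in vehicle tumours, the member levels descended from TXN (920 ± 490 CPM per kb, SD, n = 6) through PRDX1 (377 ± 29.8), SOD1 (371 ± 209), GPX1 (306 ± 160), SOD2 (135 ± 20.5), TXNRD1 (106 ± 32.0), NQO1 (87.7 ± 23.9), SRXN1 (73.5 ± 13.1) and CAT (35.3 ± 11.2) to HMOX1 (29.4 ± 10.8). With all 6 vehicle tumours PRDX1, SOD1 and GPX1 lay within 1 SD of each other, as did SOD2 with TXNRD1. So did NQO1 with both TXNRD1 and SRXN1, and CAT with HMOX1. Without vehicle replicate 001 PRDX1 (380 ± 32.6, SD, n = 5), SOD1 (286 ± 15.7) and GPX1 (242 ± 38.2) each lay more than 1 SD from the others. TXNRD1 (116 ± 22.2) then also lay more than 1 SD above NQO1 (78.5 ± 9.04). TXN ranked 45th of all tested genes with a length under vehicle and 64th under evexomostat. Its vehicle mean was 722 ± 91.5 CPM per kb (SD, n = 5) without vehicle replicate 001, and its rank without that library was not computed. SOD2 moved from 402nd to 1041st over the exonic length, and from 16th to 66th over the median transcript.

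Genes that varied most like SOD2 were sought among 13067 genes with a mean log2 CPM of at least 1. With group means removed over 11 libraries, the 5 most alike by Pearson's r were OLMALINC (0.89), TSPAN10 (0.89), ADAP1 (0.88), FRRS1 (0.88) and ACTN2 (0.86), and Spearman's rho ran from 0.79 to 0.955. Of these OLMALINC was itself called between the groups, at a fitted log2 difference of -0.88 (SE 0.16, edgeR adjusted p 0.0326). Over the 6 vehicle tumours alone the 5 were RCBTB1 (0.99), IPMK (0.98), SPECC1 (0.98), TAB2 (0.97) and CYB5B (0.97). The 2 libraries farthest from the SOD2 median there were vehicle replicates 006 and 004. Without them r was between 0.87 and 0.99 for 4 of these 5 genes and 0.37 for SPECC1. Ranks without them fell to 225 (RCBTB1), 318 (IPMK), 4827 (SPECC1), 473 (TAB2) and 31 (CYB5B). The 2 rankings shared no gene, and each is the top of many genes over few libraries.

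The wider antioxidant lists were set beside the members. Other than the members, the 7 antioxidant lists held 61 genes, of which 60 were tested. Of these 60 edgeR called 0 in either direction, beside 0.606% of all tested genes. An unadjusted p under 0.05 came from 18, 17 of them lower, beside 13.4% of all tested genes in either direction and 8.55% lower. These shares also stand beside the edgeR counts of each list below when all libraries are used. DESeq2 and limma-voom with quality weights called 3.90% and 6.36% of all genes, and their calls are given with each list. Groups did not overlap for 2 of the 60, AKR1C1 and GLRX, both lower, a share close to the 2.97% of all genes in either direction. Of the 60 genes 49 were fitted below 0, beside 55.4% of all tested genes, and their median was -0.22. The same values were not computed for these 60 without vehicle replicate 001. By list, with members included, medians without that library were 0.105 for glutathione peroxidases, 0.014 for thioredoxin and glutaredoxin and -0.031 for glutathione synthesis. They were -0.02 for superoxide dismutases, -0.07 for peroxiredoxins, -0.51 for NRF2 targets and -0.21 for NRF2 regulators, beside -0.002 for all genes.

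Peroxiredoxins gave 6 fitted values below 0 (4 of 6 without vehicle replicate 001) and none called by edgeR, DESeq2 or limma-voom (0 unadjusted p under 0.05 in edgeR), with PRDX6 having the smallest p-value (log2 fold change -0.30, SE 0.19, edgeR adjusted p 0.558). Of 5 tested glutathione peroxidases none was called by any of the 3 tools (0 unadjusted p under 0.05 in edgeR), and their median turned from -0.24 to 0.105 without vehicle replicate 001. GPX8, of the endoplasmic reticulum, was at -0.30 (SE 0.16, edgeR adjusted p 0.45) and GPX2, with at most 20 counts in a library, at 0.62 (SE 0.52, edgeR adjusted p 0.673). In the thioredoxin and glutaredoxin list of 14 genes, GLRX, the cytosolic glutaredoxin, had 37.9, 45.5 and 110 CPM at the lowest, median and highest under vehicle. It had 13.6 (002), 34.3 (003), 22.6 (004), 21.3 (005) and 19.4 CPM (007) under evexomostat. Its log2 fold change was -1.30 (SE 0.30, edgeR adjusted p 0.0714). The mitochondrial reductase TXNRD2 was at 0.31 (SE 0.20, edgeR adjusted p 0.55). In this list 3 genes had an unadjusted p under 0.05 and edgeR called 0. DESeq2 called GLRX lower, and limma-voom, like edgeR without vehicle replicate 001, called GLRX lower and TXNRD2 higher.

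Among 10 genes of glutathione synthesis and reduction edgeR called 0, with 5 unadjusted p-values under 0.05. DESeq2 called 5 (GCLM, MGST1, GCLC and GSR lower, CHAC1 higher) and limma-voom 4 (the same without GSR). GCLM, the regulatory subunit of the enzyme that starts glutathione synthesis, was at -0.64 (SE 0.175, edgeR adjusted p 0.126), its vehicle tumours averaging 79.1 ± 20.4 CPM (SD, n = 6) and the treated ones 50.9 ± 6.07 (SD, n = 5). CHAC1, which degrades glutathione and is known as a stress response gene, was at 1.01 (SE 0.26, edgeR adjusted p 0.0992), from 5.82 ± 2.21 to 11.7 ± 2.91 CPM. Without vehicle replicate 001 CHAC1 was called higher and GCLC, the catalytic partner of GCLM, lower.

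NRF2 target genes, 26 with 6 of the members among them, had 25 fitted values below 0, with a median of -0.545. Unadjusted p-values under 0.05 numbered 14, beside 13.4% of all genes, and edgeR called 0, beside 0.606% of all genes. DESeq2 called 5 lower (GCLM, AKR1C1, AKR1C3, FTH1 and GCLC) and limma-voom 8 (GCLM, AKR1C1, FTH1, GCLC, PGD, ABCC1, ABCC2 and TKT). Of the 14 with an unadjusted p under 0.05 in edgeR, SRXN1, HMOX1 and TXN are members. AKR1C1, a ketosteroid reductase, had 44.2, 99.3 and 177 CPM under vehicle (lowest, median and highest) and 17.2 (002), 35.8 (003), 43.6 (004), 24.8 (005) and 17.3 CPM (007) under evexomostat. The highest treated tumour thus lay just under the lowest vehicle tumour, and the log2 fold change was -1.895 (SE 0.42, edgeR adjusted p 0.0674). AKR1C1 shares sequence with AKR1C2 and AKR1C3, and its counts are uncertain to that extent. Summed, the list's levels ran from 8003 to 13300 CPM under vehicle and from 6235 to 8025 under evexomostat. Without vehicle replicate 001, 5 of the 26 were called, all lower (PGD, AKR1C1, FTH1, ABCC1 and GCLC), beside 5.22% of all genes.

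Of the 11 genes of NRF2 and its regulators edgeR called 0, with 3 unadjusted p-values under 0.05, while DESeq2 and limma-voom each called SQSTM1 lower. The smallest p-value was that of SQSTM1, the selective autophagy receptor that binds KEAP1, at -0.735 (SE 0.19, edgeR adjusted p 0.112). It had 3162, 4667 and 6883 CPM under vehicle (lowest, median and highest) and between 2403 and 3239 under evexomostat, and edgeR called it lower without vehicle replicate 001. NFE2L2, the gene of NRF2 itself, was at 125 ± 21.4 CPM (SD, n = 6) and 109 ± 8.69 (SD, n = 5), a fitted log2 difference of -0.19 (SE 0.13, edgeR adjusted p 0.606). KEAP1, which marks NRF2 for degradation, was at -0.24 (SE 0.12, edgeR adjusted p 0.419). These 2 genes were named after their values were seen, and MAFK had the smallest p-value above 0 (0.08, SE 0.29, edgeR adjusted p 0.942).

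SOD2 is itself an NF-kB target but was kept out of the list of 20 others. Of those, 18 were tested, with all 18 fitted below 0 with a median of -0.83, and 5 called, all lower, beside 0.432% of all genes called lower. Groups did not overlap for 9 of the 18, beside 1.64% of all genes in that direction. The 5 were ICAM1, an adhesion molecule (-1.25, SE 0.20, edgeR adjusted p 0.0189), RELB, an NF-kB subunit (-0.645, SE 0.11, edgeR adjusted p 0.0246), BIRC3, a ubiquitin ligase (-0.76, SE 0.15, edgeR adjusted p 0.0462), NFKBIZ, a nuclear cofactor (-0.95, SE 0.19, edgeR adjusted p 0.0466), and the chemokine CCL20 (-2.80, SE 0.48, edgeR adjusted p 0.0247). RELB was at 100.3 to 120 CPM in the vehicle tumours and at 64.1 to 82.5 in the treated ones. Across the fits that each left out 1 library, the number called ranged from 0 to 11, with 11 without vehicle replicate 001. DESeq2 called 12 and limma-voom 14, all lower. With the replicate block, in 8 libraries, 2 were called. This list was written with the values of some of its genes known, and it is not independent evidence of their direction.

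**Figure D4:**
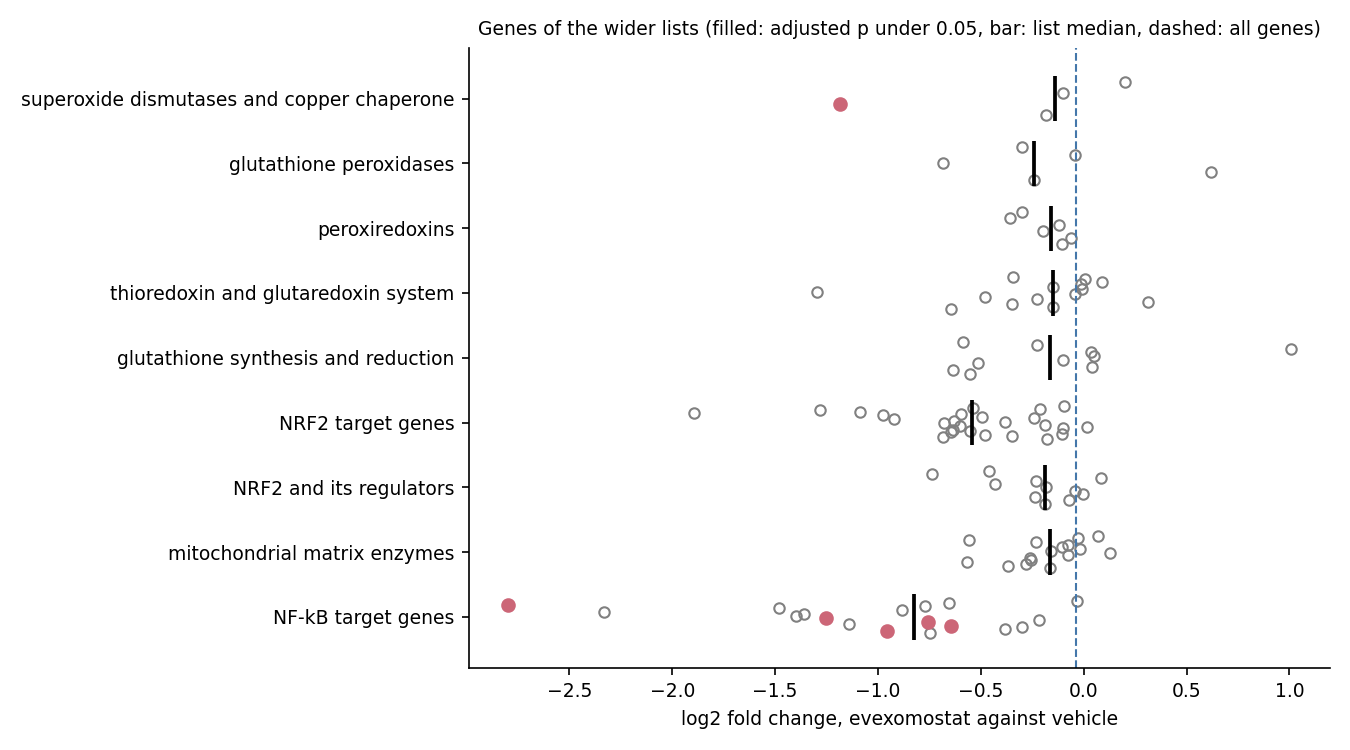
Fitted log2 fold change, evexomostat against vehicle (horizontal axis), of the tested genes of 9 lists (rows), filled where the edgeR adjusted p was under 0.05, with list medians (black bars) and the median of all tested genes (dashed line, -0.04). SOD2 is the filled point of the first row, and the other 5 filled points are NF-kB target genes.

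SOD2 works in the mitochondrial matrix, and 16 other enzymes and proteins of that compartment were read for comparison. None was called by edgeR, DESeq2 or limma-voom (0 unadjusted p under 0.05 in edgeR), 14 were fitted below 0 and the median was -0.16, with IDH3A at -0.57 (SE 0.27, edgeR adjusted p 0.38) and GLUD1 at 0.13 (SE 0.13, edgeR adjusted p 0.738). Of 17 genes of enzymes that make superoxide or peroxide, 13 were tested and edgeR called 0, with 2 unadjusted p-values under 0.05. DESeq2 called 0 as well, limma-voom called XDH, AOX1 and MAOA lower, and the replicate block fit called AOX1. AOX1, an aldehyde oxidase, was at -0.996 (SE 0.34, edgeR adjusted p 0.218) and NOXA1, an oxidase activator, at 0.65 (SE 0.45, edgeR adjusted p 0.598).

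Genes of hypoxia and markers of other cell types were read in the same libraries. Of 14 hypoxia genes 14 were fitted below 0, 11 had an unadjusted p under 0.05 (13.4% of all genes did) and 1 was called (0.606% of all genes), P4HA1 (-1.37, SE 0.23, edgeR adjusted p 0.0233). The number called was 7 without vehicle replicate 001, 7 with DESeq2 and 9 with limma-voom. It was 5 with the replicate block and 0 when any 1 evexomostat replicate (002, 003, 004, 005 or 007) was left out. Macrophages carry much HMOX1, and of 12 macrophage markers 7 were tested, their summed level was 54.7 to 104 CPM under vehicle and 41.1 to 58.5 under evexomostat, and C1QA, C1QB and C1QC had at most 1 count in any library. MARCO of that list was called lower (-2.20, SE 0.44, edgeR adjusted p 0.0462), with overlapping groups, beside 0.606% of all genes in either direction. DESeq2 and limma-voom also called MARCO, but edgeR with upper quartile scaling did not. Nor was it called without vehicle replicate 003, 004, 005 or 007, or when any 1 evexomostat library was left out. CD14 was at 0.20 (SE 0.25, edgeR adjusted p 0.802). Neutrophil markers summed to 44.9 to 212 and 32.6 to 110 CPM, fibroblast markers to 402 to 2078 and 514 to 1086, endothelial markers to 13.1 to 24.0 and 12.3 to 16.3, and adipocyte markers to 18.1 to 75.5 and 17.2 to 40.1. No gene of these 4 lists (5, 8, 6 and 5 tested) was called by edgeR, DESeq2 or limma-voom, and 0 had an unadjusted p under 0.05 in edgeR. Red cell markers, of which none was tested, reached at most 0.608 CPM. Skeletal muscle markers summed to 1.92 to 20.6 CPM under vehicle and to 1.99 to 465 under evexomostat, where replicate 005 was the highest and the next had 53.4. All 6 tested muscle genes were fitted above 0 and 5 had an unadjusted p under 0.05. Their median of 3.67 was 1.04 without evexomostat replicate 005. Of these 6 edgeR and limma-voom called 0 and DESeq2 called 1, ACTA1, higher. FN1 of the 6 mesenchymal markers was at -2.18 (SE 0.45, edgeR adjusted p 0.0503) and VIM at 0.32 (SE 0.18, edgeR adjusted p 0.473), and FN1 was called lower by DESeq2, by limma-voom and without vehicle replicate 001. Of the 9 BT-474 markers tested none was called by the 3 tools (0 unadjusted p under 0.05 in edgeR), with ESR1 at -0.49 (SE 0.50, edgeR adjusted p 0.746) and KRT18 at 0.30 (SE 0.18, edgeR adjusted p 0.493). The part of these cells, and of mouse reads counted on human genes, in the members' values was not tested.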

How the data were processed

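RNA from 11 tumours was sequenced as paired-end reads, per the labels' protocols. The submitters' processing notes name bcl2fastq 2.17, STAR 2.7.5c, featureCounts, Subread and edgeR and the builds GRCh37 and hg19, without roles. Strand setting and the treatment of mouse reads are not given in the sources used here, so overlapping genes and close copies (TXN, PRDX1, SOD1, GPX1, FTH1 and FTL have processed pseudogenes) may share reads. The deposited table holds raw counts per symbol, and the deposited RPM table holds each count relative to its library's total, matching recomputed values within 9e-13. The authors' deposited comparison table gives a log2 fold change, p-values and group means in RPM, with column names that edgeR writes, per the file headers.

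Genes were kept with filterByExpr (minimum count 10, minimum total 15), scaled by TMM and compared with edgeR 4.0.16 (R 4.3.3) quasi-likelihood F-tests without covariates, all 6 against all 5 libraries, with Benjamini-Hochberg adjustment over all 16653 genes and a threshold of 0.05. The SE is that implied by the F statistic. The labels number the samples but do not say that each came from a separate animal, so p-values measure only the spread between these samples. At these depths 3 counts equal 0.0774 to 0.145 CPM (counting error only). Alternatives were relative log expression, upper quartile, DESeq2 1.42.0, limma 3.58.1 (voom with quality weights, and log2(RPM + 1) and log2(RPM + 0.1)), no filter, a replicate block and leaving out each library. In data simulated for this comparison with 200 of 16653 genes changed, edgeR recovered 6% of those changed 1.5-fold, 54% at 2-fold, 90% at 3-fold and 92% at 4-fold. Log2 CPM used a prior count of 2. Exonic lengths came from the basic set of GENCODE release 29, matched by symbol for 15746 tested genes (94.55%).

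The members and 20 other gene lists were chosen with earlier results of these data known. Named genes are all members, every called gene of a list, the gene with the smallest p-value in each direction of a list, and the 5 genes most like SOD2 in each ranking. A gene that this rule names is not reported here. No library was a copy of another: the chi-square of their counts was at least 16.4 times its degrees of freedom in all 55 pairs.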

Additional observations from a re-analysis of the deposited data

Results flagged for a closer look

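Each member's level was examined in both groups for a highest or lowest library far from the rest (gap over range above 0.625 for 6 libraries and 0.71 for 5). Of 40 such ends in 20 groups 6 stood out, where chance picks out about 1 in 20 groups, and 4 of the 6 were in vehicle replicate 001.

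In vehicle replicate 001 the level of SOD1 was 770.5 CPM, while the other 5 vehicle tumours had 261 to 297. The same library had TXN at 1656 CPM (563 to 761 elsewhere in the group), GPX1 at 894.5 (279 to 431) and NQO1 at 417.3 (206 to 283). Vehicle replicate 007 had 131.7 CPM of CAT, where the rest of the group spanned 63.4 to 81.4. Evexomostat replicate 004 had 275.4 CPM of NQO1, where the other treated tumours spanned 231 to 241.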

How the results depend on the processing

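In all 20 alternatives SOD2 stayed below 0, and it kept its side of the threshold in 17. CAT, HMOX1, TXNRD1, SRXN1, PRDX1 and TXN also stayed below 0 in all 20. The number of genes called moved more than that of the members: 649 (200 higher, 449 lower) with DESeq2 and 1059 (384 higher, 675 lower) with limma-voom and sample quality weights. Lower genes numbered 42 with upper quartile scaling, 31 on log2(RPM + 1) and 30 on log2(RPM + 0.1). When 1 library at a time was left out, the genes called ranged from 1 to 865 (1 to 328 higher, 0 to 537 lower), the members called from 0 to 1 and the SOD2 log2 fold change from -1.257 to -1.118. The highest counts came without vehicle replicate 001. Without a single one of 8 other libraries the count also fell by over 1.5 times: 52 (vehicle 003), 46 (vehicle 004), 56 (vehicle 007), 2 (evexomostat 002), 46 (evexomostat 003), 28 (evexomostat 004), 1 (evexomostat 005) and 3 (evexomostat 007). Without evexomostat 005 edgeR called 0 genes lower, while 1833 genes had an unadjusted p under 0.05. SOD1 turned to 0.1558 with limma-voom and quality weights, 0.04171 on log2(RPM + 1) and 0.042 on log2(RPM + 0.1), GPX1 to 0.0153 and NQO1 to 0.0135 with limma-voom and quality weights. With 1 library left out SOD1 ranged from -0.2543 to 0.2017 and GPX1 from -0.3594 to 0.1047, the top values being those without vehicle replicate 001. The cause was not tested.

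Both groups have tumours numbered 003, 004, 005 and 007. Same-numbered tumours deviated together with r between -0.27 and 0.07, and none correlated best with its own number. So few numbers cannot exclude a pairing, on which the labels are silent. With a replicate block on these 8 libraries 107 genes were called (24 higher, 83 lower), against 733 (225 higher, 508 lower) without the block. SOD2 was at -1.189 and -1.191, SOD1 at 0.2569 and 0.2587 and GPX1 at 0.1358 and 0.1391 with and without it. Without the block 2 members were called, SOD2 and HMOX1 (-0.98). With it HMOX1 (-1.01) was not called.

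Of the 5 genes most like SOD2 over 11 libraries, r was 0.81 to 0.86 without the 2 libraries farthest from the SOD2 median, and they ranked from 14 to 27 without vehicle replicate 001. Depth limits few of the members, the lowest count of any being 670.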
